A study of Mus musculus with 3 samples.

Results

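The genes described here are 10 genes of intestinal fat absorption: the apolipoprotein genes Apoa1, Apoa4, Apob, Apoc2 and Apoc3, the assembly and synthesis genes Mttp and Dgat1, and the fatty acid binding and uptake genes Fabp1, Fabp2 and Cd36. They were taken by symbol, and every probe set annotated to 1 of these symbols alone was used, which gave 20 probe sets of the 45101 on the array. All 10 genes had at least 1 probe set, 3 genes having 1 and 7 having several. RNA came from follicle-associated epithelium of the small intestine, the epithelium that covers the lymphoid follicles of the gut and contains the antigen-sampling M cells. The mice were C57BL/6 and untreated, and 1 array was made from wild type RBP-J mice and 2, called KO1 and KO2 as in the labels, from mice depleted of RBP-J (VillinCre-Rbpjflox/flox). RBP-J binds DNA and carries the signal of activated Notch receptors to their target genes. The Villin promoter drives Cre in intestinal epithelium, so that lymphoid, vascular and other non-epithelial cells of these mice keep their Rbpj alleles. The sources used here give neither the age, sex and feeding state of the mice nor the segment of small intestine, and whether KO1 and KO2 were separate mice is not said, so that their spread may be only technical.

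Enterocytes take up fatty acids and monoglycerides from the gut lumen, carry them bound to small cytosolic proteins, and rebuild them into triglyceride at the endoplasmic reticulum. The triglyceride is then loaded onto apolipoprotein B by the microsomal transfer protein, and the particle leaves as a chylomicron that also carries apolipoproteins of the A and C families. These genes are among the classic products of mature absorptive cells, and their abundance depends on the position along the gut, the position along the villus and the diet.

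Intensities are in units of the median of the array, and a difference is KO minus wild type after log2(value + 0.248). The arrays differed at the top of their range, where the 99th percentile of all probe sets was 71.5 in wild type, 75.5 in KO1 and 95.3 in KO2. The median log2 difference over the 11885 genes tested was -0.0026 in KO1 and 0.22 in KO2. Over the 523 of these genes with a mean intensity of at least 50 it was 0.088 and 0.37. Rbpj, the targeted gene, read 7.15 in wild type, 2.72 in KO1 and 5.74 in KO2 with its brightest probe set, and 1 of its 3 probe sets was higher in KO2 than in wild type. Whether any of them falls within the floxed exons was not examined. Xist read 0.297 in wild type, 42.8 in KO1 and 43.4 in KO2, and the Y-linked Eif2s3y 20.6, 0.122 and 0.056, so that sex and genotype cannot be told apart here. The ratio of 3' to 5' Gapdh control probe sets, which rises as RNA degrades, was 1.83 in wild type, 2.28 in KO1 and 1.54 in KO2.

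**Figure D1:**
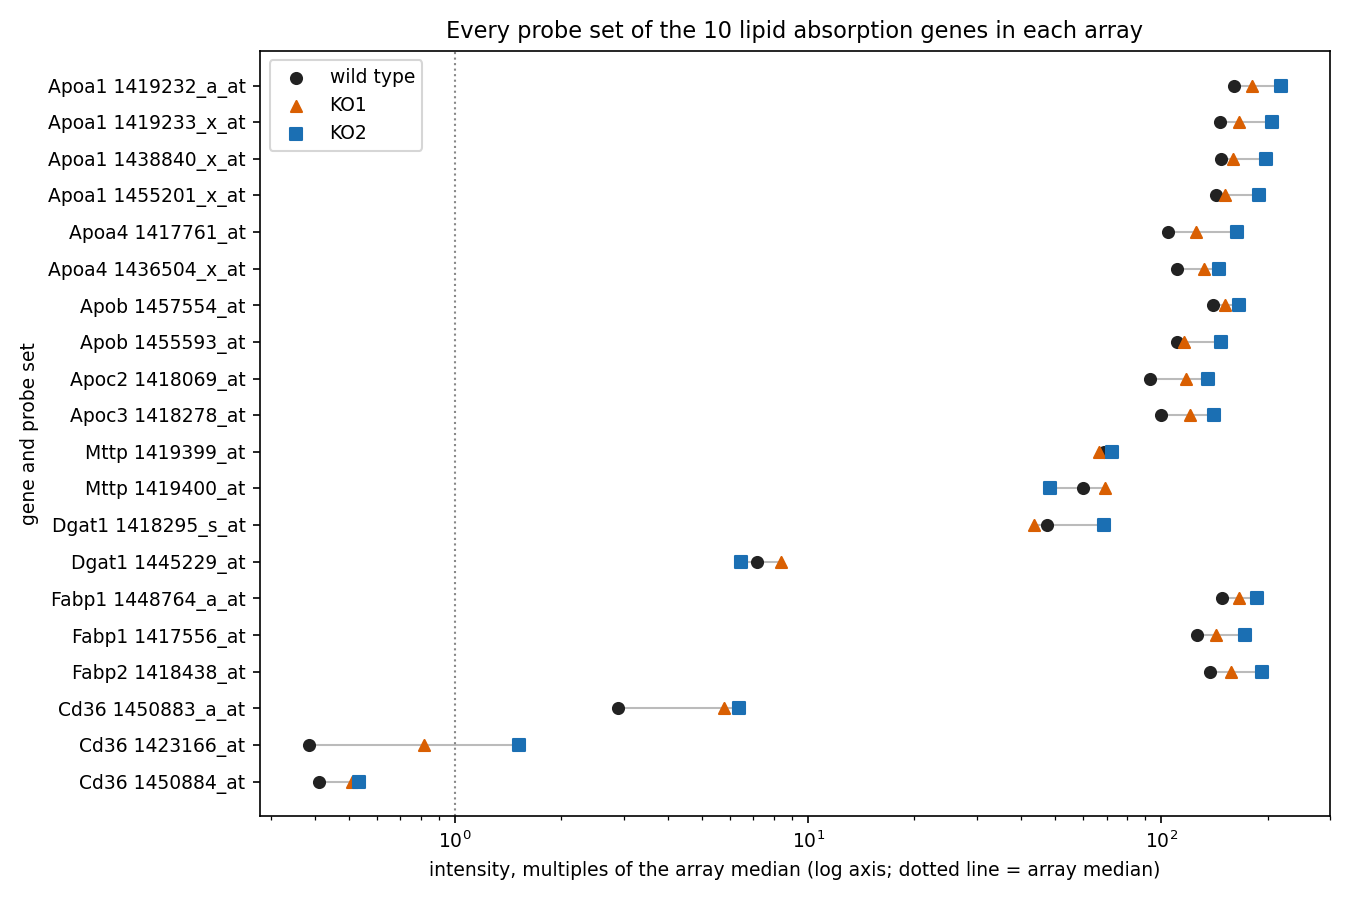
Intensity of each of the 20 probe sets (rows) in the wild type array (circle), KO1 (triangle) and KO2 (square), in multiples of the array median on a log axis. The wild type symbol lies lowest in 16 rows and between the KO symbols in the 4 rows of Mttp and Dgat1, and the widest gaps are those of the Cd36 probe sets 1450883_a_at and 1423166_at.

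All 10 genes were read above the intensity filter in the RBP-J depleted samples, as they were in wild type, and none was called as changed. Of the 20 probe sets, 16 were higher than wild type in both KO arrays, 0 were lower in both and 4 were mixed, where 34.9% of all probe sets that are not controls were higher in both. By gene, taking the probe set with the highest mean, 8 of the 10 were higher in both, against 39.0% of all genes tested. Of the 9 members with a mean of at least 50, all but Cd36, 7 were higher in both, against 67.9% of the genes in that range. None of the 10 was lower in both, against 19.5% of all genes. That share is over all 11885 genes tested, of which 523 had a mean of at least 50. It was not computed for that range. No gene was called by limma at an adjusted p under 0.05 (lowest limma adjusted p = 0.9997, with 1 gene, Cd36, at an unadjusted p under 0.05), where 0.0841% of all genes were called and 2.27% had an unadjusted p under 0.05. None was 2-fold from wild type in both KO arrays, as 1.33% of all genes were. The genes called over the whole array included the sex-linked Xist, Eif2s3y, Kdm5d and Uty. The test takes the spread of the single wild type array to equal that of the KO pair. How many cells of a type were present and how much RNA each held cannot be told apart in these samples.

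Apoa1 encodes the main protein of high density lipoprotein, which is also placed on chylomicrons. Its brightest probe set, 1419232_a_at, read 160 in wild type, 180 in KO1 and 219 in KO2, a KO mean of 199 ± 27.1 (SD, n = 2) that gave a log2 difference from wild type of 0.31 (SE 0.34, limma adjusted p = 0.9997). Both KO values lay above wild type, and KO2 lay further from KO1 than KO1 lay from wild type. The other probe sets of Apoa1, whose _x_at suffix marks probes that can bind related sequences, gave the same order of arrays: 1419233_x_at read 147, 166 and 206, 1438840_x_at read 147, 160 and 198, and 1455201_x_at read 143, 152 and 189. The 4 probe sets thus agreed closely, with log2 differences between 0.087 and 0.18 in KO1 and between 0.41 and 0.49 in KO2. The medians of the genes with a mean of at least 50 were 0.088 and 0.37.

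Apoa4, Apoc3 and Apoa1 are neighbours on chromosome 9. Apoa4 encodes a chylomicron protein that is made mainly by the gut and is known to rise with fat intake. Its probe set 1417761_at read 105 in wild type, 126 in KO1 and 163 in KO2, a KO mean of 145 ± 26.7 (SD, n = 2). The log2 difference from wild type was 0.45 (SE 0.35, limma adjusted p = 0.9997), the largest of the 5 apolipoprotein genes as deposited. With the 75th percentiles of the arrays made equal, Apoa4 was still larger than Apoc2 (0.38 against 0.37). With the mean of each gene's probe sets Apoc2 was larger (0.44 against 0.39). After quantile normalization Apoc2 was also larger (0.18 against 0.11), but there Apoa4 is represented by its other probe set. That probe set of Apoa4, 1436504_x_at, read 111, 132 and 146 as deposited. Both probe sets were higher in both KO arrays, by 0.26 and 0.26 on the log2 scale in KO1 and by 0.64 and 0.40 in KO2, so they differed on the size in KO2. Apoc3, which encodes an inhibitor of lipoprotein lipase, has 1 probe set, and it read 100.1 in wild type, 121 in KO1 and 141 in KO2 (log2 difference 0.38, SE 0.36). Apoc2, on chromosome 7, encodes the cofactor that lipoprotein lipase needs. Its probe set read 93.2 in wild type, 118 in KO1 and 136 in KO2 (log2 difference 0.44, SE 0.36). The activator and the inhibitor of the same lipase were therefore both above wild type in both KO arrays, by 0.34 and 0.54 and by 0.27 and 0.50.

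The promoter windows of Apoa4 and Cd36 are shown because they were the only ones among the members' windows with the letters TGGGAA, the core of the sequence that RBP-J binds. The windows, from RefSeq (GRCm38.p6), run from 250 bases before a start of the gene to 50 bases after it. They are written 5′ to 3′ on the gene's strand. Capitals mark TGGGAA or, where the match is on the other strand, TTCCCA. Windows of 8 of the 10 members matched by symbol.
Apoa4, chr9:46240594-46240893, plus strand: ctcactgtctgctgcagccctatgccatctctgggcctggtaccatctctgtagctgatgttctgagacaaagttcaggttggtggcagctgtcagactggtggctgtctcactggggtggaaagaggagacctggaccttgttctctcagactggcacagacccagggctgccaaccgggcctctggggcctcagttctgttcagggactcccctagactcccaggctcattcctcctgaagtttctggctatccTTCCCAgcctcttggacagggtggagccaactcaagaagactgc
Cd36, chr5:17835847-17836146, minus strand: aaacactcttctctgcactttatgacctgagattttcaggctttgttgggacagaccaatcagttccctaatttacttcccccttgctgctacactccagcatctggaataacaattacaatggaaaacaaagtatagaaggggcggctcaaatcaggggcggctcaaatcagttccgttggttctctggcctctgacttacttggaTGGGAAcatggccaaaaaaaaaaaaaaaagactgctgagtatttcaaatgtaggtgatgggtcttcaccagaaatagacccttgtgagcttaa
In Cd36 the letters begin 43 bases upstream of the start used for its window. In Apoa4 they lie on the other strand at bases 7 to 12 after its start. The Cd36 window lies inside the annotated span of the gene (17781690-17888959), so the start used for it is not the 5′ end of that span. On either strand TGGGAA stood in 2 of the 8 windows, and in 25.6% of all 32851 windows in the table. The letters TGATAA, which GATA factors can bind, stood in the windows of Apoa1 and Apoc2 and in 9.05% of all windows. Those of the TATA box, TATAAA, stood in the windows of Apob and Fabp1 and in 13.6% of all. A second site of GATA factors, AGATAA, stood in 0 of the 8 and in 11.2% of all. The HNF4 site CAAAGTCCA stood in 0 of the 8 and in 0.475% of all. Each was searched on both strands, both GATA factor sites end in the same letters, and no member's window held more than one of these motifs. A match is a description of these letters only.

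Apob encodes the large structural protein without which no chylomicron forms. Its probe set 1457554_at read 140 in wild type, 152 in KO1 and 166 in KO2 (log2 difference 0.18, SE 0.34, limma adjusted p = 0.9997). The other, 1455593_at, read 111, 116 and 147. Both KO arrays lay above wild type with either probe set, but KO1 by only 0.11 and 0.067 on the log2 scale. Relative to the median of the genes with a mean of at least 50, Apob stood at 0.023 in KO1 and -0.12 in KO2 with 1457554_at, and at -0.021 and 0.036 with the other. Its sign therefore depended on the scaling: with quantile normalization the log2 difference of Apob was -0.092 (SE 0.12).

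Mttp encodes the large subunit of the microsomal triglyceride transfer protein, which loads lipid onto apolipoprotein B. Its brighter probe set, 1419399_at, read 68.8 in wild type, 66.6 in KO1 and 72.4 in KO2 (log2 difference 0.015, SE 0.38, limma adjusted p = 0.9997). The KO arrays lay on either side of wild type. The other probe set, 1419400_at, read 59.9, 69.4 and 48.4, the reverse order of the KO arrays, so the 2 probe sets of Mttp disagreed in both. Relative to the same median of bright genes, 1419399_at stood at -0.13 in KO1 and -0.29 in KO2, and 1419400_at at 0.12 and -0.68. Both probe sets were thus below that median in KO2, and Mttp was the member with the lowest difference there. With quantile normalization its log2 difference was -0.24 (SE 0.19), and with the same 99th percentile in each array -0.23 (SE 0.22).

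Dgat1 encodes one of the enzymes that add the last fatty acid to triglyceride. Its probe set 1418295_s_at read 47.6 in wild type, 43.5 in KO1 and 68.7 in KO2 (log2 difference 0.20, SE 0.40, limma adjusted p = 0.9997). The wild type value lay between KO1 and KO2. The dimmer probe set of Dgat1, 1445229_at, read 7.16, 8.38 and 6.46, with the order of the KO arrays turned. No direction could be given for Dgat1: its arrays differed more from each other (0.65 on the log2 scale with the brighter probe set) than their mean did from wild type, and the probe sets disagreed.

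Fabp1 and Fabp2 encode the liver-type and intestinal fatty acid binding proteins, which carry fatty acids through the enterocyte. Fabp1 read 149 in wild type, 166 in KO1 and 187 in KO2 with probe set 1448764_a_at (log2 difference 0.24, SE 0.34), and 126, 143 and 173 with 1417556_at. Fabp2 has 1 probe set, which read 138, 158 and 192, a KO mean of 175 ± 24.7 (SD, n = 2) that gave a log2 difference from wild type of 0.34 (SE 0.34, limma adjusted p = 0.9997). Wild type was lowest for both genes with every probe set. Their differences from wild type, 0.15 and 0.33 for Fabp1 and 0.19 and 0.48 for Fabp2, stand beside medians of 0.088 and 0.37 over the genes with a mean of at least 50.

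Cd36 encodes a membrane receptor for long chain fatty acids that is also abundant in capillary endothelium, adipocytes and macrophages. It differed most from wild type among the 10. Its brightest probe set, 1450883_a_at, read 2.89 in wild type, 5.76 in KO1 and 6.37 in KO2, which is 1.99 and 2.20 times wild type. The KO mean was 6.07 ± 0.429 (SD, n = 2) and the log2 difference 1.01 (SE 0.49, limma adjusted p = 0.9997), so the difference did not pass the test over all genes. On the log2 scale it depended on the pseudocount, falling to 0.49 with a pseudocount of 5, and was 0.78 with the mean of the 3 probe sets. The KO arrays lay close together, 0.14 apart on the log2 scale, and both lay above wild type. The spread of wild type cannot be read from 1 array. The probe set 1423166_at read 0.385, 0.815 and 1.52, and 1450884_at read 0.411, 0.510 and 0.535. All 3 probe sets were higher in both KO arrays, but the latter pair read below the array median in wild type, and 1450884_at was the only one of the 20 that did not pass the intensity filter of 0.598. Cd36 was singled out here as the member that differed most, and the range of intensity was also chosen after the values were seen: among the 4471 genes tested with a mean between 2.5 and 10, 24 (0.537%) were at least as far above wild type in both KO arrays as Cd36.

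Markers of the other cells that make Cd36 were read in the same 3 arrays. Of 8 endothelial markers 1, Pecam1, passed the intensity filter, at 1.64 in wild type, 1.03 in KO1 and 1.77 in KO2, and the defining marker Cdh5 read 0.308, 0.456 and 0.512. The sum of the 8 was 2.61, 3.12 and 3.73, and that of the 7 below the filter 0.970, 2.09 and 1.96. Those 7 read below the array median in each array and did not all move alike. Vwf read 0.177, 0.858 and 0.469, and Gpihbp1, lower in both KO arrays, 0.167, 0.045 and 0.043. Of 6 adipocyte markers 4 had a probe set and 0 passed the filter, and their sum was lower in the KO arrays, at 0.973 and 0.792 against 1.06 in wild type. Among 7 tested macrophage markers 4 were higher in both KO arrays and 1, C1qa, was lower, at 1.96, 1.76 and 1.94. The medians of the 7 were 0.40 and 0.54. Adgre1, below the filter, read 0.151, 0.127 and 0.098. Csf1r, the receptor for the macrophage growth factor, read 2.38, 3.22 and 3.58, and the lysosomal marker Cd68 1.19, 2.11 and 2.07. The sum of the 8 macrophage markers was 76.4, 80.6 and 96.9, most of it Lyz2, which read 56.8, 55.7 and 70.0. Without Lyz2 the other 7 summed to 19.5, 24.9 and 27.0. The part of such cells in the difference of Cd36 was not tested.

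**Figure D2:**
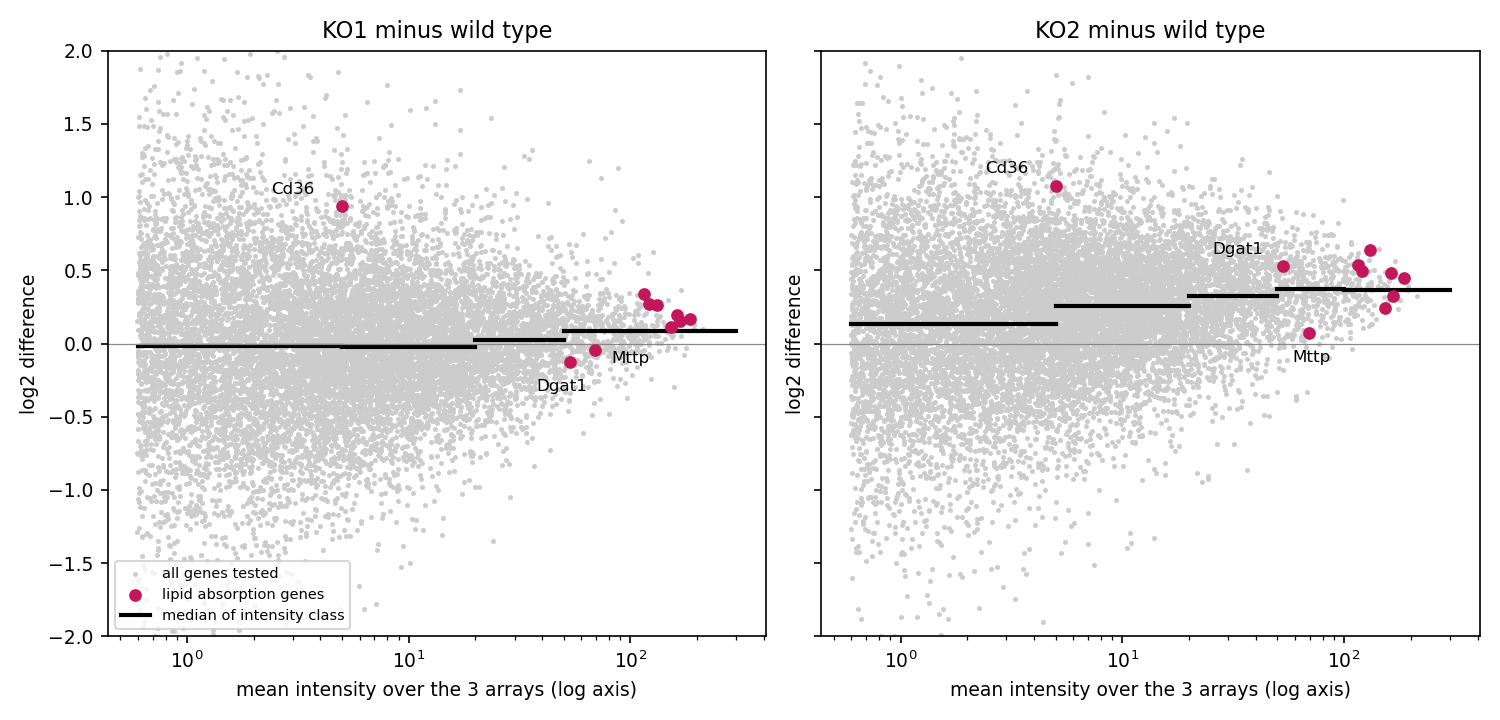
Log2 difference from wild type (vertical axis) against the mean intensity over the 3 arrays (horizontal log axis) for each gene tested, in KO1 (left) and KO2 (right). Grey points are all genes tested within the drawn range, red points the 10 lipid absorption genes, and black bars the median of each intensity class, which rises to 0.088 on the left and 0.37 on the right in the brightest class. Cd36 stands near 1 in both panels, and the other members lie between -0.13 and 0.34 on the left and between 0.075 and 0.64 on the right.

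Where a gene stood in intensity went together with its difference. In KO1 the median difference was -0.020 over the 6014 genes with a mean under 5 and 0.088 over the 125 genes with a mean of 100 or more. In KO2 these medians were 0.13 and 0.37. The 7 members with a mean of at least 100 (Apoa1, Apoa4, Apob, Apoc2, Apoc3, Fabp1 and Fabp2) were all higher in both KO arrays, as were 80.8% of the genes of that class. Apoc2 stood furthest above the median of genes with a mean of at least 50 in KO1 among these 7, at 0.25, and Apoa4 in KO2, at 0.27. Over all 10 members the median difference was 0.18 in KO1 and 0.49 in KO2.

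**Figure D3:**
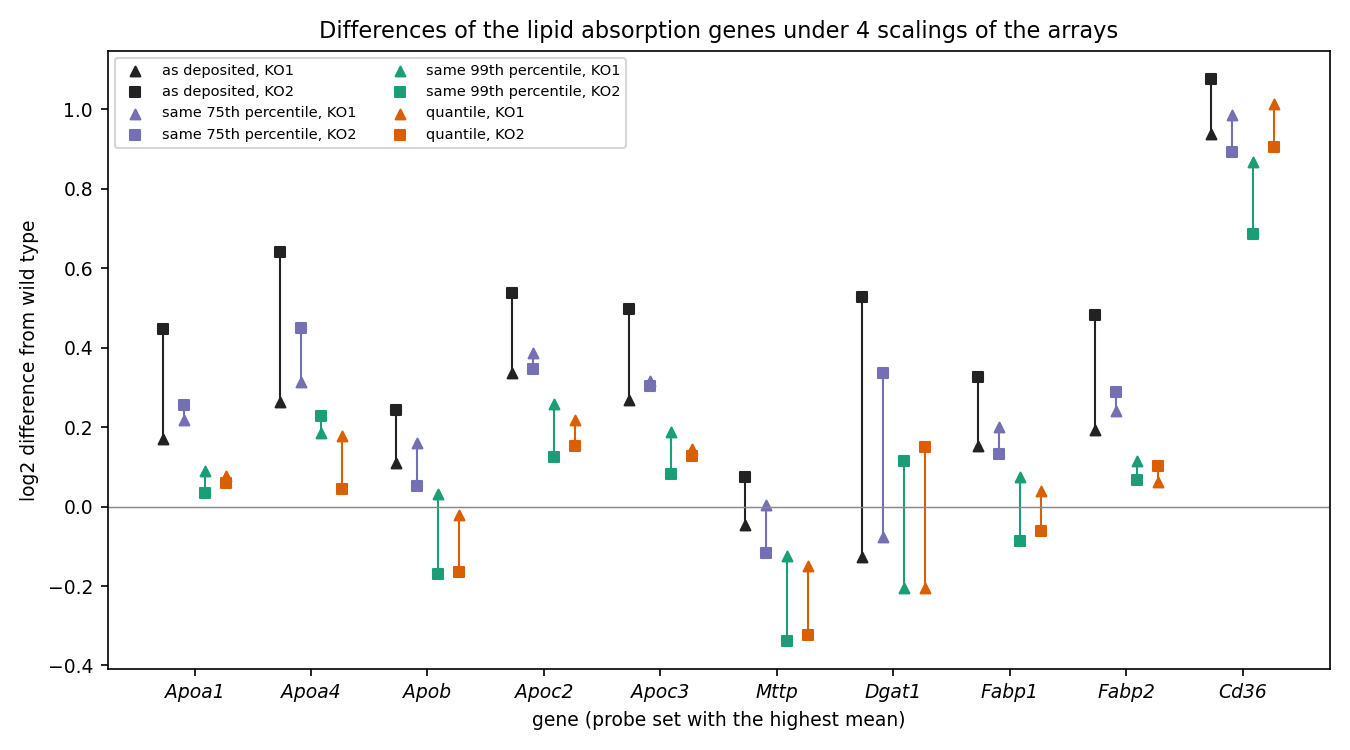
Log2 difference from wild type of the 10 genes in KO1 (triangles) and KO2 (squares), for values as deposited (black), with the same 75th percentile (purple), with the same 99th percentile (green) and after quantile normalization (orange). After quantile normalization all but Cd36 lie between -0.32 and 0.22, and Cd36 stays between 0.69 and 1.08 under all 4 scalings.

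The median log2 difference over the 10 genes was 0.32 as deposited, against 0.11 over all genes tested. With equal 75th percentiles, which left 8 of the 10 higher in both KO arrays, these medians were 0.25 and 0.039. Equal 99th percentiles, a scaling chosen after seeing the data, gave 0.076 and -0.13. Both scalings multiply a whole array by one factor before the pseudocount is added, and so move all but the dimmest genes nearly alike. The members stood above the median of all genes by 0.22 as deposited, 0.21 with equal 75th percentiles and 0.20 with equal 99th percentiles. In the range that holds 9 members, a mean of at least 50, the medians as deposited were 0.088 in KO1 and 0.37 in KO2. Those of the 10 members were 0.18 and 0.49. Quantile normalization, which changes bright and dim genes unequally, brought the members' median to 0.075 and its distance from that of all genes to 0.074. Only Mttp lay below the median of all genes under the first 3 of these settings, while Apob, Dgat1, Fabp1 and Mttp did after quantile normalization. The differences of Cd36 were 1.01 and 0.90 after quantile normalization (limma unadjusted p under 0.05) and 0.87 and 0.69 with equal 99th percentiles (limma unadjusted p above 0.05). Apoa1, Apoa4, Apoc2, Apoc3 and Fabp2 kept values above wild type in both KO arrays under each of these scalings, though their sizes after quantile normalization were between 0.044 and 0.22. Mttp was below wild type in both KO arrays after quantile normalization, and also when the 99th percentiles were made equal. After quantile normalization 6 of the 10 members were higher in both and 2, Mttp and Apob, lower in both, where 30.9% of all genes were higher and 29.4% lower.

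Other genes of the pathway were read in 8 lists covering uptake, resynthesis, storage, particle assembly, other apolipoproteins, regulators and oxidation. Of their 78 tested genes limma called 0 in either direction and 1, Acsl4, had an unadjusted p under 0.05 (1.28%), beside 0.0841% and 2.27% of all genes, so that a count of 0 is near the background. Acsl4, an acyl-CoA synthetase that prefers arachidonic acid, read 3.08 in wild type, 0.990 in KO1 and 0.865 in KO2 (log2 difference -1.51, SE 0.56, limma adjusted p = 0.9997). Among the 8 tested genes of fatty acid activation and transport, 5 were higher in both KO arrays and 2 lower, with medians of 0.077 and 0.25. The transporter gene Slc27a1 was, beside Acsl4, the one that read lower, at 5.58 against 4.46 and 2.43, while Dbi, the acyl-CoA binding protein, read 115 against 126 and 154.

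Triglyceride resynthesis, which takes in the genes from glycerol acylation to the final step, had 7 of 11 genes higher in both KO arrays and 1 lower, with medians of 0.028 and 0.25. Dgat2, whose enzyme does the same reaction as that of Dgat1 but is unrelated to it in sequence, read 18.9 in wild type, 27.4 in KO1 and 36.0 in KO2 (log2 difference 0.73, SE 0.43, limma adjusted p = 0.9997). Dgat2 was thus higher in both KO arrays, where Dgat1 was not. Chylomicron assembly and traffic had 8 of 11 genes higher in both and 1 lower, with medians of 0.16 and 0.26. Pla2g12b, a catalytically inactive phospholipase relative that is needed for lipoprotein secretion, read 22.4 against 32.4 and 36.8. P4hb, the partner subunit of the microsomal transfer protein, read 105 against 105 and 126.

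Lipid droplet and lipolysis genes had medians of -0.22 and 0.38 over 9 genes, with 4 higher in both KO arrays and 1 lower. The lysosomal acid lipase gene Lipa read 13.1 in wild type, 22.3 in KO1 and 25.7 in KO2 (log2 difference 0.85, SE 0.45). Cholesterol absorption and efflux had medians of 0.16 and 0.040 over 6 genes. Npc1l1, the sterol importer of the brush border, read 48.3, 50.6 and 53.4, and the sterol exporter subunit Abcg8 8.79, 13.0 and 12.4. Of the other apolipoproteins 3 of 8 passed the intensity filter, with 0 higher and 0 lower in both. Apoe read 1.99 in wild type, 1.14 in KO1 and 6.68 in KO2, so the KO arrays lay on either side of wild type.

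Transcription factors of the absorptive programme had medians of 0.049 and 0.34 over 17 genes, with 9 higher in both KO arrays and 3 lower. Hnf4a, a nuclear receptor that many apolipoprotein genes depend on, read 80.8, 76.4 and 89.1, on either side of wild type. Ppara, the fatty acid sensing receptor, read 9.52 in wild type, 15.2 in KO1 and 15.9 in KO2 (log2 difference 0.69, SE 0.46). Fatty acid oxidation genes and targets of that receptor had medians of 0.0012 and 0.36 over 13 genes, with 7 higher in both. Cpt1a, which admits fatty acids to mitochondria, read 14.9 against 21.4 and 19.2. None of these differences passed the test.

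**Figure D4:**
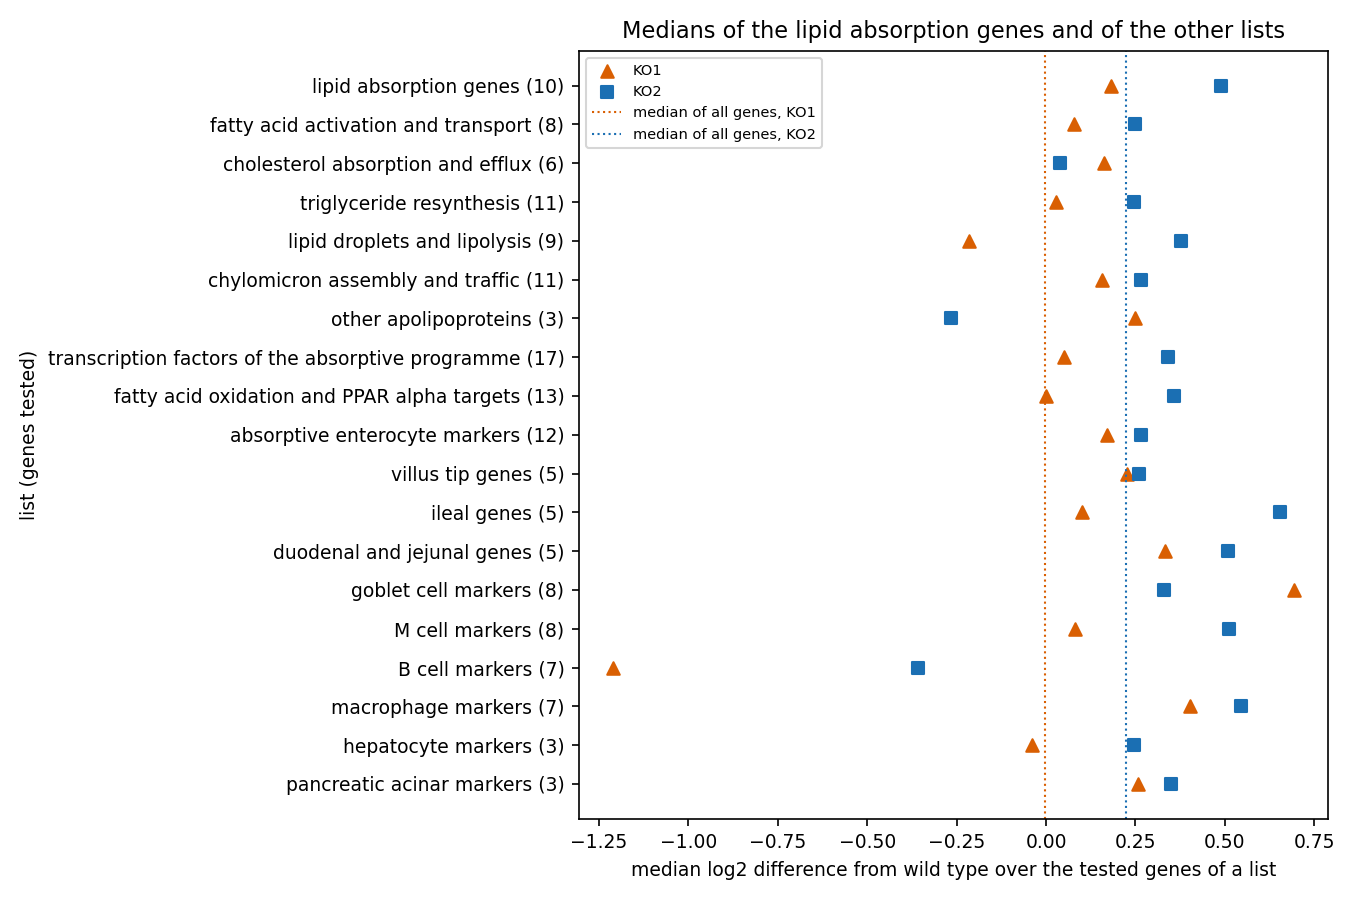
Median log2 difference from wild type over the tested genes of each list (rows, number of genes in brackets) in KO1 (triangles) and KO2 (squares), with dotted lines at the medians of all genes tested, -0.0026 and 0.22. The lipid absorption genes lie at 0.18 and 0.49, and B cell markers lie furthest to the left.

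The makeup of the samples was read from markers. Absorptive enterocyte markers had medians of 0.17 and 0.27 over 12 genes, against 0.18 and 0.49 for the 10 lipid genes. Among them Alpi, the intestinal alkaline phosphatase, read 80.1 in wild type, 122 in KO1 and 122 in KO2, and the aminopeptidase Anpep 144, 150 and 172. The M cell receptor Gp2 was read at 19.8, 9.90 and 32.6, and Marcksl1, another M cell marker, at 60.4, 84.9 and 94.6. M cell markers had medians of 0.082 and 0.51 over 8 genes, with 5 higher in both KO arrays and 0 lower. B cell markers had medians of -1.21 and -0.36 over 7 genes, with 4 lower in both KO arrays. Goblet cell markers had medians of 0.69 and 0.33 over 8 genes, with 7 higher in both. Of all genes tested 39.0% were higher in both and 19.5% lower. Among those with a mean of at least 50, 67.9% were higher in both, and their medians were 0.088 and 0.37. In KO1 goblet cell markers thus lay above wild type and B cell markers below it, and the part of sample makeup in their differences was not tested. Apolipoprotein genes are also liver genes, and the liver markers Alb and Ahsg read 0.603, 0.396 and 0.758, and 0.081, 0.093 and 0.054. Of the 7 hepatocyte markers with a probe set, 3 passed the filter: Ttr, the thyroxine carrier, read 32.4, 33.8 and 39.3, the urea cycle gene Cps1, which intestinal epithelium also makes, 65.3, 63.6 and 77.5, and Tat 1.86, 1.47 and 1.48.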

How the data were processed

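The authors deposited a linear intensity for each probe set of each array, produced by MAS5 according to the submitters' processing notes, and each array's median is exactly 1 (how it was scaled is not given in the sources used). Intensities of different probe sets are not comparable as amounts of RNA. Scanner files were not used here, so saturation was not examined. Gene names came from the platform annotation, and 10 of 10 member symbols matched RefSeq. A gene was represented by its probe set with the highest mean, and the 11885 of 18193 genes with a mean of at least 0.598 (the 40th percentile) were tested. R 4.3.3 and limma 3.58.1 (lmFit, eBayes with trend) were run on log2(value + 0.248), the pseudocount being the 25th percentile of all values, with Benjamini-Hochberg adjustment over all genes and calls at an adjusted p under 0.05. The test was run on simulated data in which wild type was given the same spread as the KO pair. That simulation therefore could not check whether the wild type array varies like the KO arrays. No depth applies to arrays, and their number limits the precision.

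Members and lists were chosen with earlier results of these data known. Named genes are the members with every probe set, Rbpj, sex-linked genes and, of each list, up to 3 tested genes ranked by the lesser of their KO1 and KO2 differences, where both have 1 sign, and the one with the highest mean. Cdh5, Vwf, Gpihbp1, C1qa, Adgre1, Alb, Ahsg and Gp2 were named after their values were seen. Listed genes with no probe set annotated to them alone were not analysed here. Alternatives were pseudocounts of 1 and 5, other filters, scalings and probe set rules, eBayes without trend and leaving out an array.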

Additional observations from a re-analysis of the deposited data

How the results depend on the processing

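The count of called members was 0 under each of the 10 alternatives with a test, and so was the count of members with a 2-fold difference in each KO array, wherever it was recomputed. The number of genes called by limma over the whole array was 10, and 1 without an intensity filter, 6 when it was raised to the 60th percentile, 4 after quantile normalization, and 4 with equal 75th percentiles; testing 27027 probe sets in place of genes gave 24 called probe sets. The median difference of the members, 0.32, was 0.075 after quantile normalization and 0.076 with equal 99th percentiles, an alternative chosen after seeing the data, and ranged from 0.18 to 0.49 when 1 depleted array was left out. Cd36, at 1.01, was 0.49 with a pseudocount of 5. The other filters, the testing of every probe set and eBayes without trend left each member's difference as it was, so they could not turn one. Of 100 member values under the 10 alternatives with a test, these included, 90 kept their direction. The 10 that turned were, after quantile normalization, Apob at -0.092, Mttp at -0.24, Dgat1 at -0.027 and Fabp1 at -0.010; with equal 99th percentiles, Apob at -0.069, Mttp at -0.23, Dgat1 at -0.045 and Fabp1 at -0.0072, where the median of all genes moved to -0.13 and Mttp alone lay below it; and Mttp at -0.057 with equal 75th percentiles and at -0.016 with the mean of its probe sets. With 1 depleted array left out, Mttp ranged from -0.045 to 0.075 and Dgat1 from -0.13 to 0.53. Under quantile normalization Apoa4 is represented by its other probe set. The cause of these changes was not tested. With equal 75th percentiles 6 members had an unadjusted limma p under 0.05 and 0 an adjusted one. Of all 11887 genes tested under that setting, 320 had an unadjusted limma p under 0.05 and 4 an adjusted one. The SE of Apoa1, as an example, was 0.11 there and 0.34 as deposited, with a log2 difference of 0.24 and 0.31. No paired analysis was possible because there is 1 wild type array.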

Other observations

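Genes that mark the segment of gut were also read. Ileal genes had medians of 0.099 and 0.65 over 5 genes, with 4 higher in both KO arrays. Fabp6, which encodes the ileal bile acid binding relative of Fabp1 and Fabp2, read 192 in wild type, 205 in KO1 and 240 in KO2, and the bile acid importer Slc10a2 read 16.8, 23.9 and 36.8. Fgf15, the hormone that bile acids induce in ileum, read 7.65 against 25.9 and 17.6 (log2 difference 1.45, SE 0.46, limma adjusted p = 0.644). Genes of duodenum and jejunum had medians of 0.33 and 0.51 over 5 genes, with 2 higher in both. Slc46a1, the folate transporter, read 8.16 against 14.1 and 20.5, while lactase, Lct, read 39.1, 49.2 and 30.7.

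Genes of the villus tip, where Apoa4 is known to peak, had medians of 0.23 and 0.26 over 5 genes, with 3 higher in both KO arrays. Nt5e, an ectonucleotidase of the tip, read 2.41 in wild type, 4.21 in KO1 and 4.90 in KO2, and Klf4 24.5, 32.9 and 34.9. None of these genes was called by limma. Pancreatic acinar transcripts were low, except that colipase, Clps, read 10.5, 24.6 and 13.4.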
